A study of Mus musculus with 3 samples.

Results

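The H2 genes form the major histocompatibility complex of the mouse. All gene records of GENCODE M21 on Chromosome 17 whose symbol starts with H2- were taken, which gave 45 of the 53843 records on Chromosomes 1 to 19 and X. Of these, 34 are protein-coding and 11 are pseudogenes of several types. By symbol, 32 belong to class I, 12 to class II, and 1 record, H2-Ke6, carries an H2 symbol but encodes a steroid dehydrogenase. The records span chr17:33974659-37483552 of mm10. The span with 100 kb added on either side is 3.71 Mb long and is called the H2 window here. It held 107 of the 18945 CTCF peaks of LSK cells, with membership set by the midpoint of the peak.

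Class I molecules present peptides from inside the cell to CD8+ T cells and are read by natural killer cells. Class II molecules present peptides from the endosome to CD4+ T cells. The mouse complex starts with the K class I genes, continues with the class II genes and a stretch of unrelated genes known as the class III region, and then holds the D, Q, T and M series of class I genes. CTCF is a zinc finger protein that binds a directional DNA motif and, with cohesin, anchors chromatin loops and domain boundaries, so the position and strand of its sites are of interest in a region made of duplicated genes.

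The study mapped regulatory features across mouse blood cell types, and the data used here are CTCF ChIP-seq of 1 library. The cells were LSK cells (Lin-, Sca1+, cKit+), which include hematopoietic stem cells and multipotent progenitors, from the bone marrow of adult male C57BL6 mice. They were sorted as negative for CD4, CD8, IL7Ra, CD11b, Ly6g, CD45R and Ter119 and positive for cKit and Sca1, and the CTCF antibody was Millipore 07-729. An input of LSK cells and an input of MEP cells (megakaryocyte erythroid progenitors) are the other samples and were not analyzed here. With 1 library there is no replicate and no test between groups, so every value is a description of that library, and intervals cover counting error only. The peak list gives no read counts, so the depth is unknown from the data used here, and it does not measure expression, so it cannot check the label of the sorted cells. Each peak carries the authors' fold enrichment, a linear ratio over background as the peak caller gives it, and a −log10 p-value.

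A block of sequence that recurs next to K and Q class I genes held 6 of the peaks. It is shown first because the copies could be compared letter by letter. The lines below give, 5′ to 3′ on the strand of the motif, the 52 bases around the best match to the CTCF core motif in each copy, as read from GRCm38.p6, which shares its coordinates with mm10. Capitals mark the 12 bases of the core, which differ from the consensus at 1 position in every copy. The last line is a copy upstream of H2-Q10 in which no peak was listed.
H2-K2: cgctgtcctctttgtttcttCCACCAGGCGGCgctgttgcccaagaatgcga
H2-K1: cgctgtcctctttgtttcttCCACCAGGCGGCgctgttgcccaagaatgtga
H2-Q1: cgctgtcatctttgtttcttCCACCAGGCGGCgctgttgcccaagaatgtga
H2-Q5: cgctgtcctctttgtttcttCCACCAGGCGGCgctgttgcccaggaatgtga
H2-Q6: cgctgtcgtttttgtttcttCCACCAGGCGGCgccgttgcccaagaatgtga
H2-Q7: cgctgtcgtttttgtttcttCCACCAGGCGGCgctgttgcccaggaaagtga
H2-Q10: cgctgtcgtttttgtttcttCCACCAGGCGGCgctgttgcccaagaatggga

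The core letters were the same in all 7 copies. The H2-K2 core lies at chr17:33982351-33982362 and the H2-K1 core at chr17:34003631-34003642, both on the minus strand. The other cores are on the plus strand, at chr17:35296007-35296018 for H2-Q1, chr17:35389985-35389996 for H2-Q5, chr17:35420664-35420675 for H2-Q6, chr17:35435037-35435048 for H2-Q7 and chr17:35465871-35465882 for H2-Q10. In every copy the core was on the strand of the nearest H2 gene and upstream of its transcription start site (TSS, the 5′ end of the gene record). Over Chromosomes 1 to 19 and X these 12 letters occurred at 80 places on both strands, of which 22 were in a peak, or 27.5%. In the H2 window they occurred at 7 places, and 6 of those were in a peak. The letters were read from these 6 peaks, so that count follows from the choice of core. The 22 include them as well.

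Next to the K genes, the peak of H2-K2, a transcribed pseudogene, had a fold enrichment of 21.21, and the peak of H2-K1, which encodes the classical K molecule, had 15.99. The core was 3524 bp upstream of the H2-K2 TSS and 3284 bp upstream of the H2-K1 TSS. By its midpoint the H2-K2 peak, chr17:33981875-33982764, fell in an exon of the record CR974462.6, and the H2-K1 peak, chr17:34003220-34004058, was intergenic. The peaks lay 21.3 kb apart, each at a like distance from its gene, and the one at the pseudogene had the higher fold enrichment. Each K gene also had a peak downstream without the block, 8946 bp from the H2-K2 TSS with 15.01 and 7910 bp from the H2-K1 TSS with 16.31. H2-Ke6, between the K and the class II genes, had its nearest peak 5922 bp upstream, in an intron of Rxrb, with a fold enrichment of 5.55.

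In the Q series the intergenic peak upstream of H2-Q5, a polymorphic pseudogene, had a fold enrichment of 26.69, the second highest of the window. The peaks upstream of H2-Q6 and H2-Q7, which encode Qa-2 type class I molecules, had 20.12 and 19.91. Their cores were 4130 bp upstream of H2-Q5, 4175 bp upstream of H2-Q6 and 4107 bp upstream of H2-Q7. The peak upstream of H2-Q1 was the exception in distance. Its core was 24387 bp from the TSS, with a fold enrichment of 16.31.

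H2-Q10, which encodes a class I molecule secreted by the liver, was the exception in occupancy. Its copy, chr17:35465362-35466392, was 92.9% to 93.5% identical to the 6 peaks of the block and had the core 4207 bp upstream of the TSS, close to the distances at H2-Q5, H2-Q6 and H2-Q7. The nearest listed peak was 17486 bp away. Of the 32-base words in the Q10 copy 35.8% occurred at 2 or more places in the genome, against 18.6% to 69.7% in the 6 peaks with the block. A list of peaks above a threshold shows only that no peak passed there, not that CTCF was absent.

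**Figure D1:**
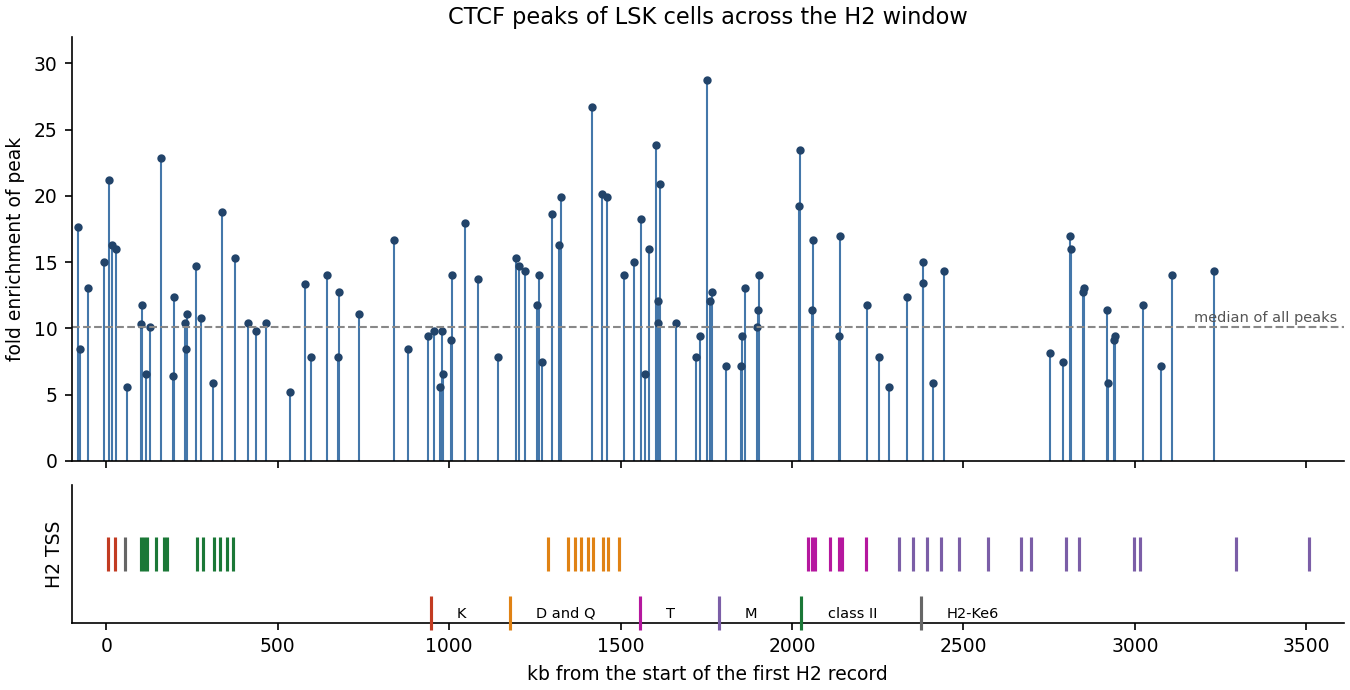
Map of the H2 window, with the midpoint of each of the 107 peaks in kb from the start of the first H2 record (x axis) against its fold enrichment (y axis), and with the TSS of each H2 record below, coloured by series. Peaks run from before the K genes to the M series, the highest reaches 28.71, and 2 long stretches of the M series have none.

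The H2 window was dense in CTCF peaks. It held 28.8 peaks per Mb (95% exact Poisson interval 23.6 to 34.9), against 7.56 on the autosomes outside the window and 8.41 on the rest of Chromosome 17, a ratio of 3.82 to the other autosomes. Of 655 autosomal tiles of the same length, 3 held more peaks, the median tile held 22, and the fullest held 133. The window was also dense in genes, with 50.7 protein-coding records per Mb against 8.38 on the other autosomes. Per 100 protein-coding records it held 56.9 peaks, fewer than the 90.2 of the other autosomes.

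The peaks of the window were somewhat stronger than the list as a whole. Their median fold enrichment was 12.07, with a range of 5.22 to 28.71, against 10.12 over all peaks. Of the 107, 70 (65.4%) were above the median of all peaks, where 48.9% of all peaks are, and 20 (18.7%) reached the fold enrichment of 16.64 that marks the top 10% of all peaks. By midpoint 16 were exonic, 35 intronic and 56 intergenic, and the intergenic share of 52.3% compares with 45.8% over all peaks.

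Density varied along the complex. The class II segment, chr17:34073762-34344645, held 14 peaks, or 51.7 per Mb (28.3 to 86.7). The K segment held 2 peaks in 25.7 kb, or 77.9 per Mb (9.43 to 281), and the D and Q segment 6, or 28.3 per Mb (10.4 to 61.6). A segment ends at its gene records, so the peaks upstream of H2-K1 and H2-T3 lay outside the K and T segments. The T segment held 4 peaks, or 21.7 per Mb (5.90 to 55.5), and the M segment 19, or 15.8 per Mb (9.54 to 24.7). The intervals of the M and the class II segments did not overlap, while those of the K, D and Q and T segments overlapped the interval of each other segment named here. Between the H2 groups, the class III region held 29 peaks (31.6 per Mb) and the stretch from D and Q to T held 24 (45.2 per Mb).

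The peaks of the D and Q segment were strong. All 6 had a fold enrichment of 16.31 or more, with a median of 19.9, whereas the 14 of the class II segment had a median of 10.6 and a range of 5.87 to 22.84. The D and Q segment was also the one with the most repeated sequence. Of its 32-base words 51.9% occurred at 2 or more places of the genome, against 48.5% in the T segment, 24.4% in the M segment, 20.9% in the K segment and 11.8% in the class II segment. The authors kept reads that map to several places, the sources used here do not say how such reads were placed, and the part of repeated sequence in the fold enrichments was not tested.

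**Figure D2:**
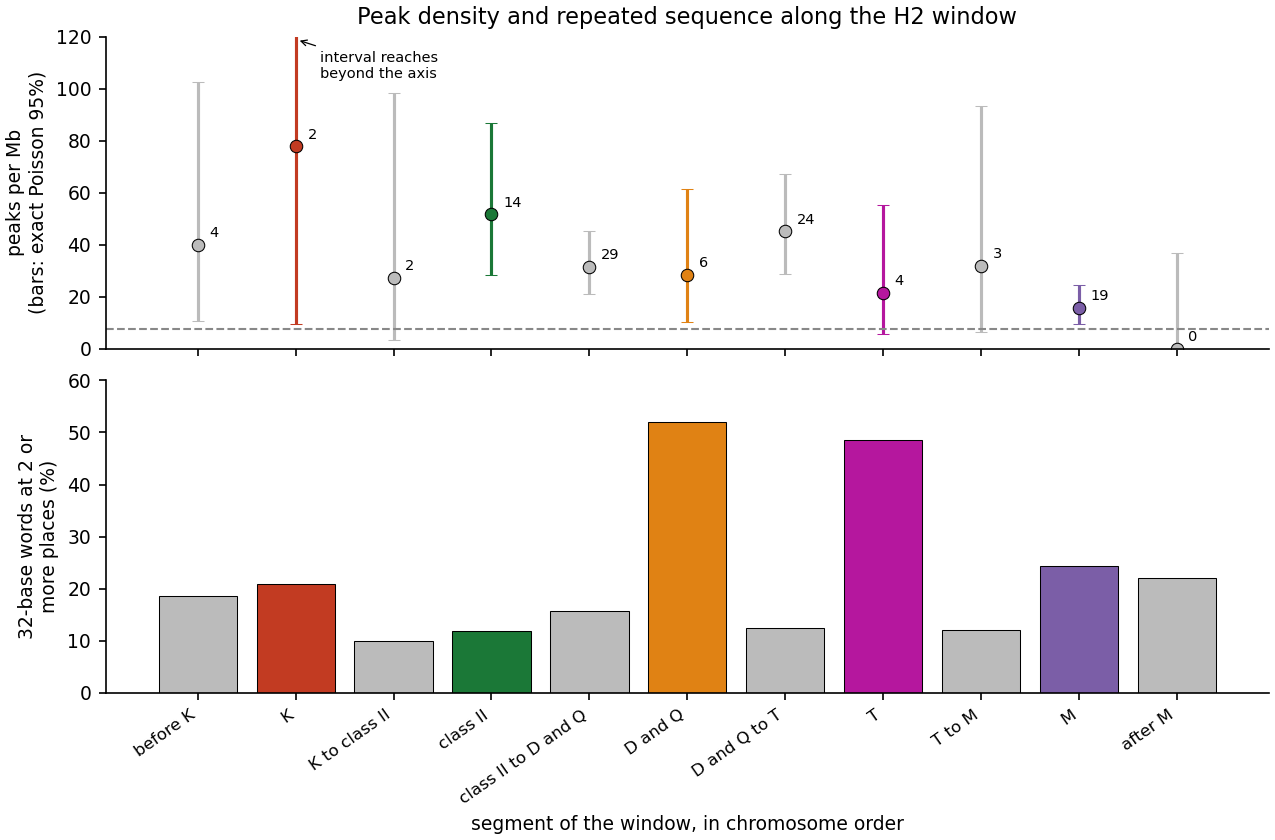
Upper panel, peaks per Mb in each segment of the H2 window with exact Poisson 95% intervals, the number of peaks beside each point and a dashed line at the 7.56 per Mb of the other autosomes; lower panel, the share of 32-base words found at 2 or more places. The class II segment (51.7 per Mb) was denser than the M segment (15.8), and the D and Q and T segments had the largest shares of repeated words (51.9% and 48.5%).

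A single peak counted as repeated when over 50% of its 32-base words occurred at 2 or more places. Of the 107 peaks, 5 did (4.67%, 95% Wilson interval 2.01% to 10.5%), against 2.85% of all peaks. They were the peaks upstream of H2-Q5 (66.6% of words) and H2-Q7 (69.7%), the peaks 2316 bp from the H2-T23 TSS (51.6%) and 2367 bp from the H2-T-ps TSS (51.8%), and the peak upstream of H2-M10.5 (51.7%).

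The core motif was about as frequent in the peaks of the window as in all peaks. It was found without a mismatch in 39 of the 107 peaks (36.4%, interval 27.9% to 45.9%), where 35.6% of all peaks hold it. With up to 1 mismatch it was found in 95 (88.8%, 81.4% to 93.5%), against 83.6% of all peaks, and the other 12 held it with 2 mismatches. Of the 38 peaks with exactly 1 such motif, 19 had it on the plus strand and 19 on the minus strand. The 85 exact matches in the window came to 22.9 per Mb, against 8.94 on the other autosomes, and 40 of them (47.1%, 36.8% to 57.6%) were in a peak, against 31.0% elsewhere. The window thus held more motif matches per Mb, and a larger share of them was in a peak.

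Among the H2 genes, 24 of 45 (53.3%) lay within 10 kb of a peak, from the TSS to the nearest edge of the peak, where 22.3% of all gene records have one. The neighbours of the H2 genes did so nearly as often. Of the 298 other records in the window 144 (48.3%) had a peak within 10 kb. Of the 34 protein-coding H2 records 16 (47.1%) had one, against 75 of the 154 other protein-coding records in the window (48.7%) and 29.3% of all protein-coding records. The share of the H2 genes was thus close to that of the region around them.

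The H2 genes were close to their neighbours at shorter and longer distances as well. No peak covered the TSS of an H2 gene record, and 4 of the 45 (8.89%) had a peak within 1 kb, where 5.66% of all gene records and 8.05% of the other records in the window have one. Within 50 kb 40 had a peak (88.9%), against 55.7% of all records and 89.6% of the other records in the window. Of the 45 genes 19 (42.2%) had a peak upstream within 10 kb, against 13.4% of all records, and 13 (28.9%) had one downstream, against 11.5%. The shares by side were not computed for the other records in the window. RefSeq promoter sequences, which cover a short stretch on either side of a gene start, were at hand for 32 of the H2 genes, and 0 of them overlapped a peak. The share of all promoters that overlap one was not computed, and few records of any kind had a peak so close, as the 5.66% within 1 kb shows.

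**Figure D3:**
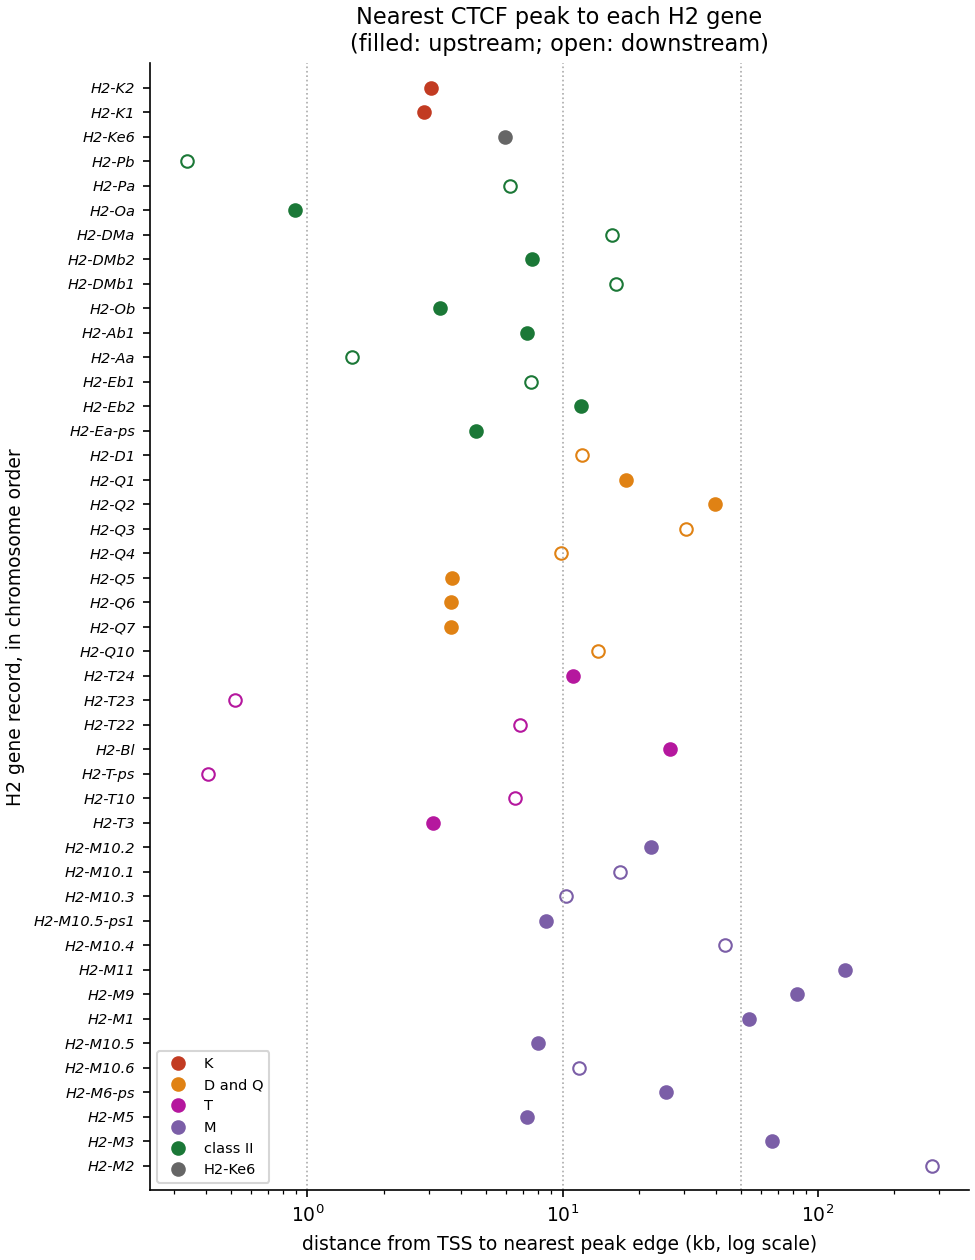
Distance in kb (x axis, log scale) from the TSS of each of the 45 H2 records to the edge of the nearest peak, in chromosome order (y axis), with filled points for a peak upstream and open points for one downstream and dotted lines at 1, 10 and 50 kb. Distances run from 338 bp at H2-Pb to 279383 bp at H2-M2, and the M series holds all 5 records beyond 50 kb.

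In class II, 9 of 12 records lay at most 10 kb from a peak, and all 12 lay at most 50 kb away. For the other records in the window these shares were 48.3% and 89.6%, and for all gene records 22.3% and 55.7%. At 50 kb class II was thus near its neighbours, and the difference at 10 kb was not tested. The median distance in class II was 6738 bp, against 10286 bp for the other records in the window and 38926 bp for all gene records. The 9 records shared 8 peaks. The median over the 32 class I records was 11293 bp, with 14 (43.8%) within 10 kb. Without the M series, 11 of 18 class I records had a peak within 10 kb, at a median of 6670 bp, so the longest class I distances lay in the M series.

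At the start of the class II segment stand pseudogenes and H2-Oa. H2-Pb, a pseudogene, had a peak 338 bp downstream of its TSS, inside its own intron, with a fold enrichment of 10.33 and the motif without a mismatch. A second peak, 1182 bp upstream, had 11.75. H2-Oa encodes the alpha chain of H2-O, which restrains peptide loading by H2-DM. Its nearest peak, chr17:34090808-34091450, was 890 bp upstream with a low fold enrichment of 6.53, and lay in an intron of BC051537. The same peak was the nearest one to the pseudogene H2-Pa, 6207 bp downstream.

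The H2-DM genes encode the molecule that exchanges peptides on class II molecules, with H2-DMa for the alpha chain and H2-DMb1 and H2-DMb2 for beta chains. They surrounded the strongest class II peak, chr17:34135144-34135715, with a fold enrichment of 22.84, for which the authors' −log10 p-value was 49.516. It lay in an exon annotated as UTR of H2-DMa, 15603 bp downstream of that TSS and 7592 bp upstream of the H2-DMb2 TSS. Another annotated transcript of H2-DMa has its start inside this peak. Its core, CCACCAGGGGGC, matched the consensus without a mismatch on the plus strand, and the same 12 letters were in the peak 8946 bp downstream of the H2-Oa TSS. H2-DMb1 was farther from a peak than any other class II record, at 16175 bp, from a weak one with a fold enrichment of 6.42.

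H2-Ob, which encodes the beta chain of H2-O, had a peak 3319 bp upstream with a fold enrichment of 14.68. H2-Ab1 and H2-Aa encode the chains of the A molecule, the class II molecule of C57BL6 mice. H2-Ab1 had a peak 7269 bp upstream with a fold enrichment of 10.77. H2-Aa had one 1492 bp downstream, in an exon of H2-Aa itself, with 5.87, and was the class II gene with the weakest nearest peak. The peak of H2-Aa was not among the 50% of all peaks with the lowest false discovery rate, and among those the nearest one to H2-Aa was 25558 bp away.

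H2-Eb1, which encodes the beta chain of the E molecule, held a peak in an intron, 7514 bp downstream of its TSS, with a fold enrichment of 18.79, and this was also the nearest one to H2-Eb2, 11776 bp upstream. The last class II record, H2-Ea-ps, encodes the E alpha chain in other strains and is a pseudogene here. The peak just beyond the edge of the segment, chr17:34349243-34349971, was 4598 bp upstream of it with a fold enrichment of 15.34 and the motif without a mismatch on the minus strand. At the opposite edge, the first peak of the segment was the one in H2-Pb, with its motif on the plus strand. The cores lie at chr17:34075470-34075481 and chr17:34349615-34349626. The sites at the edges of the class II genes, each with 20 bases on either side of the core in capitals, are shown because their motifs point toward each other across the segment.
H2-Pb: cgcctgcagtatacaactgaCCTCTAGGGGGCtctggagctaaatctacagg
H2-Ea-ps: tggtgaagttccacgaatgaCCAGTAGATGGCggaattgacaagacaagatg

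The class II segment also holds genes of the class I pathway. Tap1 and Tap2 encode the peptide transporter, and Psmb8 and Psmb9 encode subunits of the immunoproteasome. A peak in an exon annotated as UTR of Tap2, 554 bp downstream of its TSS, had a fold enrichment of 10.44, and it was the nearest one to Psmb8 (6360 bp) and Psmb9 (16317 bp) as well. Tapbp, which encodes tapasin, lies before the K genes and had a peak 4688 bp downstream with 13.05. Of 15 genes of the class I pathway, in and outside the window, 8 had a peak within 10 kb, from 6 peaks, where 29.3% of all protein-coding records have one. Within 1 kb 3 had one, against 5.66% of all records, a share that was not computed for protein-coding records alone. The median distance was 8431 bp, against 24222 bp over all protein-coding records. Those outside included Erap1, an aminopeptidase that trims peptides, with a peak 205 bp upstream (fold enrichment 10.12), and B2m, the light chain of class I molecules, whose nearest peak was 12748 bp downstream (8.16).

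The genes listed for the class II pathway all lie outside the complex. Of 14, 5 had a peak within 10 kb, near the share of 29.3% of all protein-coding records, and none had one within 1 kb, with a median of 21829.5 bp, against 24222 bp over all protein-coding records. Rfx5, a subunit of the factor that binds class II promoters, had a peak 9689 bp upstream (18.93), and Ciita, the class II transactivator, had its nearest one 41163 bp downstream (8.48). Among 25 other genes of the complex 15 had a peak within 10 kb, from 12 peaks, beside 48.7% of the protein-coding records of the window without an H2 symbol and 29.3% of all protein-coding records. Ltb, Tnf and Lta, cytokine genes of the class III region, shared 1 peak with a fold enrichment of 14.36, which was 1028 bp downstream of the Ltb TSS, 5839 bp downstream of the Tnf TSS and 9183 bp downstream of the Lta TSS.

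H2-D1, which encodes the classical D molecule, had no peak within 10 kb of its TSS. From the start of another annotated transcript of H2-D1, a peak was 8673 bp away. The peak nearest to the H2-D1 TSS, 11964 bp downstream, had a fold enrichment of 18.60. Its core, CCGCCAGGGGGC on the minus strand, was repeated letter by letter in a peak 17795 bp upstream of H2-Q1 with 19.90. These cores differ from the block of the K and Q genes, so the D and Q segment held peaks with only 2 core sequences. H2-Q1 and H2-Q2 shared that peak as their nearest one, with H2-Q2 at 39632 bp. H2-Q3 and H2-Q4 had the peak of H2-Q5 as their nearest one, at 30519 bp and 9891 bp downstream. From there to the Q1 peak, 86.9 kb with the TSSs of H2-Q1, H2-Q2, H2-Q3 and H2-Q4 held no peak and 0 exact core motifs. The gene bodies of this series differed in repeated sequence, from 2.10% of 32-base words in H2-Q3 to 75.6% in H2-Q7, with 74.0% in H2-Q5 and 69.4% in H2-Q6.

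**Figure D4:**
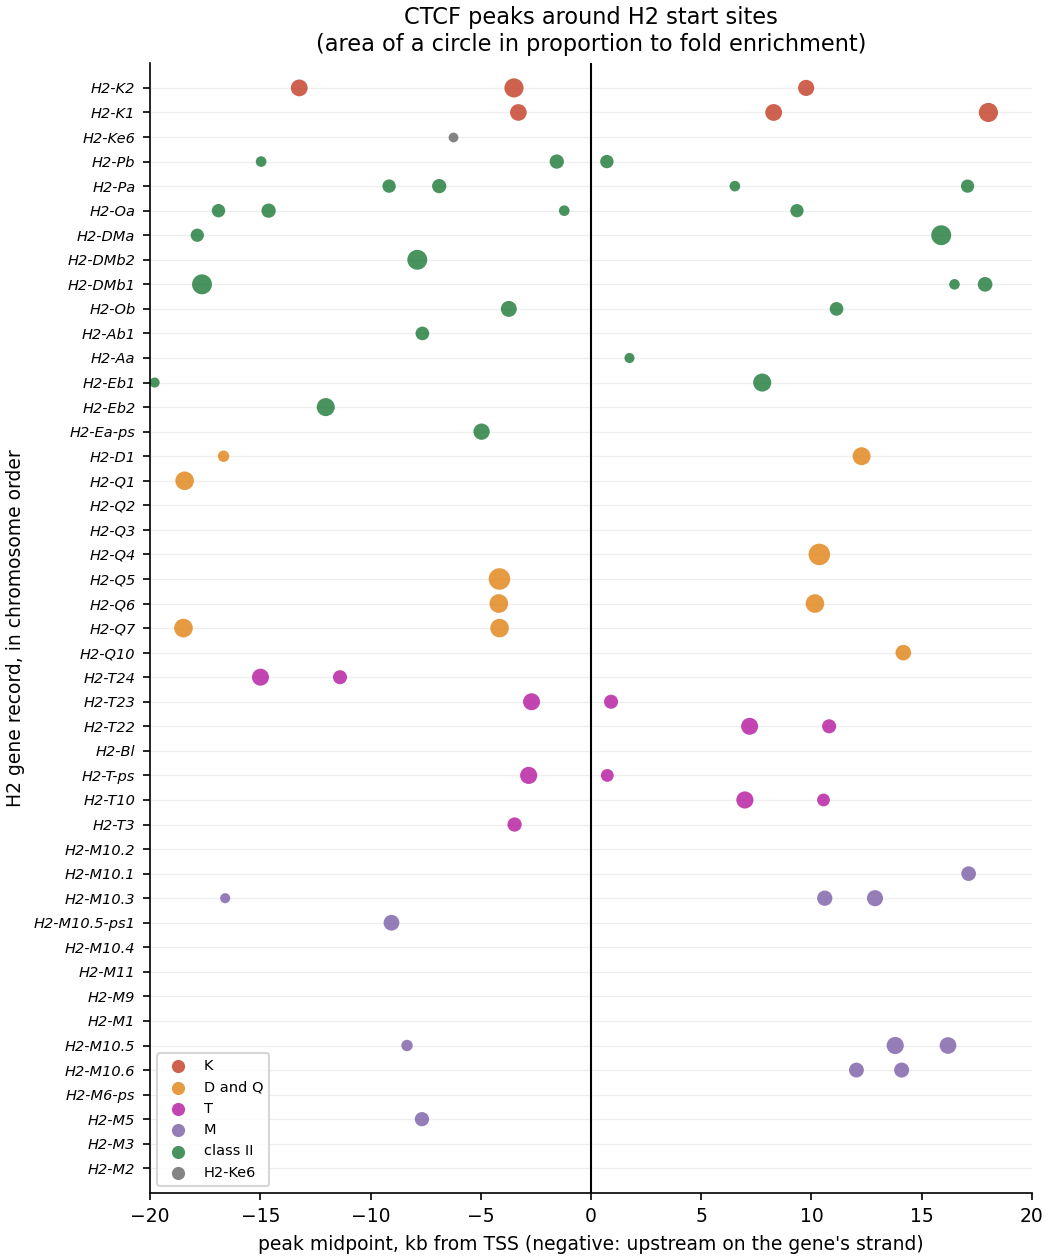
Midpoints of peaks within 20 kb of each H2 TSS (x axis, kb, negative values upstream on the strand of the gene), with records in chromosome order (y axis) and the area of a circle in proportion to fold enrichment. Peaks line up upstream of H2-K2, H2-K1, H2-Q5, H2-Q6 and H2-Q7, and the H2-T23 and H2-T-ps rows show the same arrangement.

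In the T series the arrangement of peaks was repeated. H2-T23 encodes Qa-1, a ligand of natural killer receptors. It had a peak 522 bp downstream of the TSS, in its own exon, with a fold enrichment of 11.42, and another 2316 bp upstream with 16.64. H2-T-ps, a pseudogene farther along the series, had a peak 408 bp downstream in its own exon with 9.46 and another 2367 bp upstream with 16.97. The weaker peaks were 94.6% identical over 425 bp and the stronger ones 96.6%, and the stronger pair shared 377 words of 32 bases, or 51.6% of the words of the first and 42.6% of the words of the second. The cores are printed because each pair had the same letters, with 1 mismatch in the weaker pair and none in the stronger. Capitals mark the core, and all 4 are on the minus strand, in the order printed at chr17:36031712-36031723, chr17:36110742-36110753, chr17:36035512-36035523 and chr17:36114464-36114475.
H2-T23, downstream: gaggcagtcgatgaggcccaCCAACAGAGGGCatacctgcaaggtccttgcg
H2-T-ps, downstream: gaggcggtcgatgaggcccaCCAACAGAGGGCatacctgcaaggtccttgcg
H2-T23, upstream: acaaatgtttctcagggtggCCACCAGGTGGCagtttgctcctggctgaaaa
H2-T-ps, upstream: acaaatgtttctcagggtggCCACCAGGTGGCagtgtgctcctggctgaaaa

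The fold enrichments within each T pair were close, and the pairs differed from each other. The core of the weaker peaks was less often in a peak across the genome than that of the stronger ones. Its 12 letters occurred at 558 places on Chromosomes 1 to 19 and X, with 5.91% in a peak, against 48.3% of 737 places for the core of the stronger peaks. H2-T22 and H2-T10, which encode or resemble ligands of gamma delta T cells, each had a peak of the stronger pair as the nearest one, 6816 bp and 6524 bp downstream. H2-T3, the thymus leukemia antigen gene, had a peak 3096 bp upstream with a fold enrichment of 11.75. A copy of that peak near H2-T10, 90.9% identical, held no peak. Its core carried the substitution T9A, with positions counted from 1 at the 5′ end of the core and the base of the peak given first, which adds a mismatch to the consensus. H2-T24 was 10996 bp and H2-Bl 26362 bp from a peak.

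Among the M10 genes, class I genes known from the vomeronasal organ, 3 had a pair of peaks downstream, at like distances. H2-M10.3 had peaks 10289 bp and 12498 bp downstream, with fold enrichments of 13.42 and 15.01. H2-M10.5, on the other strand, had them 13321 bp and 15828 bp downstream with 16.97 and 15.99. H2-M10.6 had them 11590 bp and 13696 bp downstream with 12.73 and 13.05. In all 3 genes the cores were on the strand opposite to the gene. The inner peaks, those nearer to the TSS, shared the core CCAGAAGGTGGC, with 1 mismatch to the consensus. By the 90% identity used here, the inner peak of H2-M10.3 was a like copy of those of H2-M10.5 and H2-M10.6. No match between the inner peaks of H2-M10.5 and H2-M10.6 passed the limits. The outer ones held CCAGTAGATGGC in H2-M10.5 and H2-M10.6 and ACAGTAGATGGC in H2-M10.3. Of the outer peaks, those of H2-M10.3 and H2-M10.5 were like copies (92.6% identical), whereas that of H2-M10.6 had no match to either that passed the limits of identity and length. H2-M10.1 had 1 peak 16778 bp downstream with 12.40, a like copy of the outer peak of H2-M10.3, which was also the nearest to H2-M10.2 at 22182 bp.

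Weaker peaks lay on the other side of H2-M10.3 and H2-M10.5. A peak 8032 bp upstream of H2-M10.5 (fold enrichment 7.50) and one 16236 bp upstream of H2-M10.3 (5.87) were 93.5% to 93.8% identical. The third copy in their family was the outer downstream peak of H2-M10.6, with 13.05, which was 91.3% to 91.4% identical to the peak upstream of H2-M10.5. The core of the H2-M10.6 copy matched the consensus without a mismatch, and those of the weaker copies, CCAGTAGATGTC and CCAGTAGATGAC, had 1 mismatch each. The peak 8642 bp upstream of H2-M10.5-ps1, a pseudogene, had 14.36, and a copy of it at 46316 bp from H2-M10.5 had 8.16. The best match to the core had 2 mismatches in each, and it was not at the same site of the copy. The 14 records of the M series had a median distance to the nearest peak of 23797 bp, and 7 of them are M10 records, with a median of 11590 bp.

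The remaining M genes ranged widely. H2-M5 had the shortest distance of the M series, with a peak 7271 bp upstream with a fold enrichment of 11.75, and the pseudogene H2-M6-ps had the same one as its nearest, at 25412 bp. H2-M3, which presents formylated peptides of bacteria and mitochondria, was 66051 bp from its nearest peak, and H2-M2 was 279383 bp from the same one. H2-M9 and H2-M1 were 83184 bp and 53631 bp from a peak, H2-M11 was 128071 bp from one, and H2-M10.4 was 43330 bp from one.

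Apart from H2-M5 and H2-M6-ps, these genes lay in 2 long stretches without a peak. The stretch chr17:36419005-36725849, 307 kb long, holds the TSSs of H2-M10.4, H2-M11, H2-M9 and H2-M1 and 2 exact core motifs. The stretch chr17:37204170-37583552, 379 kb up to the end of the window, holds the TSSs of H2-M3 and H2-M2, 20 protein-coding records in all and 1 exact core motif. Their shares of repeated 32-base words, 29.8% and 26.2%, were above the 21.5% of the whole window. The median spacing of neighbouring peak midpoints in the window was 24.8 kb.

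Of the 107 peaks, 21 (19.6%) fell into 7 families, in which each peak was at least 90% identical to another over at least 50% of its length. The families are the 6 peaks of the K and Q genes, 2 pairs in the T series, and 3 trios and 1 pair among the M10 genes. For 23 of the 45 H2 genes the nearest peak belonged to such a family. Peaks were compared within the window alone. The share in families over all peaks, and over the other gene records of the window, was not computed. Fold enrichments ranged from 15.99 to 26.69 in the K and Q family, from 16.64 to 16.97 in the stronger T pair and from 5.87 to 13.05 in the trio whose 3 cores all differed. Whether the same reads were counted in several copies was not tested.

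**Figure D5:**
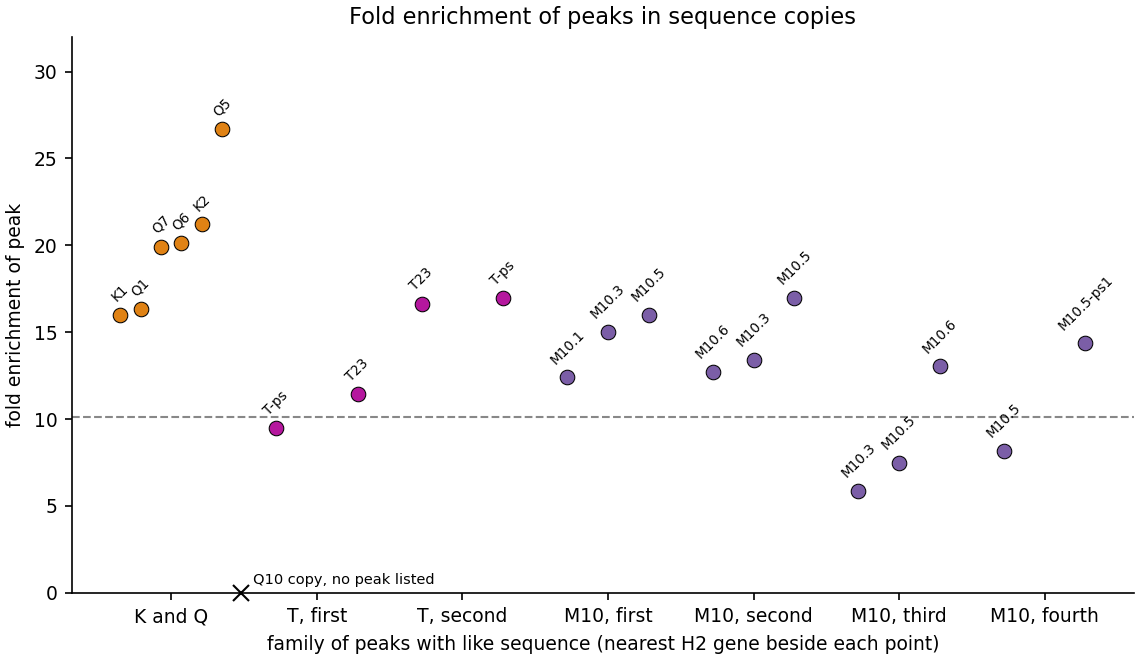
Fold enrichment (y axis) of the 21 peaks in the 7 families of like sequence (x axis), each point named by its nearest H2 gene, with a cross for the H2-Q10 copy without a listed peak and a dashed line at the median of all peaks, 10.12. All 6 peaks of the K and Q family and both peaks of the stronger T pair lie above the line, and the third M10 family spans 5.87 to 13.05.

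Like copies of a peak lay at 5 places of the window where no peak was listed. Besides those of H2-Q10 and H2-T10 there were 3, all between the class II genes and H2-D1. One of them, chr17:34732853-34733676, lay within C4b and was 96.0% identical to a peak with a fold enrichment of 16.64 in an intron of C4a. The core of this copy carried C2T, which brought it to 2 mismatches. Another, 95.3% identical to a peak with 11.09 in an intron of Tnxb, did not align over the core. The third, 90.7% identical to the weakest peak of the window (5.22), had the core unchanged.

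The 10 strongest peaks of the window were split between the families and single sites. The strongest, chr17:35725435-35726139, was intergenic between the Q and T genes with a fold enrichment of 28.71, and its −log10 p-value was 74.413. Its nearest protein-coding TSS was that of Ddr1, 20814 bp away. Its core, CCACCAGGGGAC, has 1 mismatch. After the H2-Q5 peak came intergenic peaks nearest to 2300002M23Rik (23.82) and, in an intron of A930015D03Rik, one nearest to Prr3 (23.49), then the H2-DMa peak (22.84), the H2-K2 peak (21.21), a peak nearest to Sfta2 (20.88), the H2-Q6 and H2-Q7 peaks and the peak upstream of H2-Q1 with 19.90. Of these 10, 4 belonged to the K and Q family. Within 10 kb of an H2 TSS lay 26 of the 107 peaks (24.3%).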

How the data were processed

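CTCF was measured by ChIP-seq in 1 LSK library. The members and the gene lists were chosen with earlier results of these data known. The paper's methods state that reads mapping to several places were allowed, and name MACS for the peaks; the submitters' processing notes name Bowtie 1.0.0, bcl2fastq and mm10. The paper's methods give an earlier version of Bowtie, and which was used for this library was not settled. How MACS was set, and whether it used the input, is not stated in the paper or the labels. The deposited list carries no column names, so units follow from its layout and values. Fold enrichment is a linear ratio computed by the authors' peak caller. The −log10 p-value of each peak is printed as deposited. A q-value (false discovery rate) from the authors served to rank peaks and is not printed, since its scale is not stated.

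All further values were derived with Python 3.11.15, blastn 2.17.0, numba 0.67.0, pandas 2.3.3, scipy 1.17.1, numpy 2.4.6 and matplotlib 3.10.9. Starts were converted to count from 1. Genes were those of GENCODE M21 and sequence that of GRCm38.p6. H2 records were put into class I or class II by symbol, and a segment runs from the lowest start to the highest end of a series. The CTCF core motif, a consensus of 12 letters from general knowledge, was searched on both strands, and the best match with up to 2 mismatches was kept. Exact words of 32 bases were counted over Chromosomes 1 to 19, X and Y on both strands. Peaks were compared with the window by blastn with word size 16, keeping matches of at least 90% identity over at least 50% of the peak. Shares have 95% Wilson intervals and densities exact Poisson intervals. Peaks described singly were the 10 strongest, those within 1 kb of an H2 TSS, those at the edges of the class II segment and those in like copies; the nearest peak of each H2 gene and listed gene was also given. The motif search, word counts and distances were tested on simulated data. No depth was available and no comparison between groups was made. The inputs were not analyzed here.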

Additional observations from a re-analysis of the deposited data

How the results depend on the processing

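Of 25 alternatives planned, 15 left a value within the limits set for it and 10 moved it. With the 50% of all peaks that had the lowest false discovery rate, the window held 66 peaks with a median fold enrichment of 14.36. With a distance of 1 kb, 4 H2 genes had a peak (2 of class I, 2 of class II), and with 50 kb 40 had one (27 of class I). Counting protein-coding records alone, 9 class I genes had a peak within 10 kb, against 14 of all 32 class I records. Leaving out the pseudogenes lowered the total as well as the count. Accepting 1 mismatch raised the share of window peaks with the motif to 88.8%. With words of 24 bases, 28.1% of the window was repeated. Among those stricter peaks 20 H2 genes had a peak within 10 kb, against 24 in the whole list. No paired analysis was possible because 1 library has a file and no groups were tested, and no replicate could be left out. Read depth in the copies cannot be judged from a peak list.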
